A study of Mus musculus with 20 samples.

Results

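The BCL2 family holds the proteins that set whether a cell keeps its mitochondria intact or starts the intrinsic pathway of apoptosis. Described here are Mcl1 and 9 other genes of this family in the knee joints of 20 mice. The 10 genes were taken by symbol, and 9 of them had a row among the 14793 genes of the table: the survival genes Mcl1, Bcl2, Bcl2l1 and Bcl2a1d, the effector genes Bax and Bak1, and the BH3-only genes Bcl2l11, Pmaip1 and Bbc3. Bcl2a1b was not analysed here. Mcl1 was chosen by its difference between the STING-MSC and MSC joints of these same data, where it stood at rank 2 of 14793 genes in limma's order. Its values in that comparison are therefore a description with no test, and so are those of the other members there. Mcl1 was tested only between TLR3-MSC and control joints, which took no part in its choice.

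All mice were male C57BL/6Nci, 12 weeks old at the start, with no transgene, and in all of them the medial meniscus of the right knee had been made unstable by surgery (DMM), a model of osteoarthritis. Control joints had the needle put into the joint and received no cells. The other groups received adipose-derived mesenchymal stromal cells (MSC) into the joint in weeks 3 and 5 after surgery, either resting (MSC), activated through TLR3 with its ligand pIC (TLR3-MSC), or activated through STING with its ligand 2',3' c-GAMP (STING-MSC). Each group had 5 joints from 5 mice, and all cells came from 1 pool of donors, so the donor pool is not replicated. No unoperated joint was analysed here, and a control that received untreated fluid or dead cells was not part of the design. Each sample was a whole joint with cartilage, synovium, capsule and the bone beside it. The study gives different intervals between the last injection and collection in its methods and its results, so no interval is stated here.

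In this family the survival proteins, among them MCL1, BCL-2 and BCL-xL (encoded by Bcl2l1), hold the effectors BAX and BAK in check. BH3-only proteins such as BIM (Bcl2l11), NOXA (Pmaip1) and PUMA (Bbc3) rise or are released under stress and neutralize the survival proteins, after which the effectors open the outer mitochondrial membrane. MCL1 is a short-lived protein on which neutrophils, lymphocytes and many stromal cells depend, NOXA binds it with preference, and BCL-xL is needed for the survival of maturing red cells. Messenger RNA does not show the amount, binding or turnover of these proteins.

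The start of Mcl1 is shown because it is the member that was chosen by its difference between STING-MSC and MSC joints. These 300 bases run from 250 bases before to 50 bases after the start of transcription (RefSeq, GRCm38.p6, chr3:95658471-95658770, plus strand), and the capitals mark the single match to the GC box GGGCGG, which begins 20 bases before the start on the other strand.
Mcl1: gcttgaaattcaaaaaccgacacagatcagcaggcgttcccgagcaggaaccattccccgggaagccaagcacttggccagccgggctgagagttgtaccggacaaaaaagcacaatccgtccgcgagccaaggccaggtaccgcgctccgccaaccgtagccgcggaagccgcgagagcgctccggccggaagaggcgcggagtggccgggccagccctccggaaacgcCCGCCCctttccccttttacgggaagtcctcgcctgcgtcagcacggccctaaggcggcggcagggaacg
The GC box was present in 35.7% of 32851 promoters of the same length, searched on both strands. No match was found in the Mcl1 window for the CRE TGACGTCA (1.79% of promoters), the AP-1 site TGANTCA (7.81%), the GAS element TTCNNNGAA (8.30%), the C/EBP letters TTGCNNAA (10.8%), the ETS letters CCGGAAGT (3.89%) or the NF-kB motif (4.51%). These are matches of letters in this window and say nothing of whether a factor binds.

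The Bcl2a1 genes encode the survival protein A1, which is made mainly in blood cells, and exist as near-identical copies on chromosome 9. Their first 120 coding bases in the GENCODE transcripts are shown because reads from these copies are hard to assign to 1 gene, and the capitals mark the 7 positions at which the copies differ. The stretches lie at chr9:88613653-88613772 (minus strand) for Bcl2a1d, chr9:89081413-89081532 (plus strand) for Bcl2a1b and chr9:88839104-88839223 (plus strand) for Bcl2a1a, in GRCm39.
Bcl2a1d: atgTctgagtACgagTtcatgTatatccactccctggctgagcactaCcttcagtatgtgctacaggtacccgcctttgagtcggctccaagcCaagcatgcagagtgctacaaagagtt
Bcl2a1b: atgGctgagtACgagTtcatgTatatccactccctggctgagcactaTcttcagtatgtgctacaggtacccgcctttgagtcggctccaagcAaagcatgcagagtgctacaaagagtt
Bcl2a1a: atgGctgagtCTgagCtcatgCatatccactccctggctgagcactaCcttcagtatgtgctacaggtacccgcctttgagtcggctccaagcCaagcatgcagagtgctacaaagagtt
Over all 519 coding bases, Bcl2a1d differed from Bcl2a1b at 6 positions (98.8% identity) and from Bcl2a1a at 7 (98.7% identity). Of the windows of 150 bases, the read length, in the Bcl2a1d transcript, 30.5% occurred unchanged in a transcript of Bcl2a1a or Bcl2a1b. The Bcl2a1d value is therefore uncertain, because reads of its copies may be counted with it or left out.

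The values are normalized counts, that is reads per gene divided by a size factor of the library. Each joint had 27955496 to 52529972 reads on the genes of the table. The median was highest in MSC joints, at 42283681 reads. It was 33230113 in control, 33141873 in TLR3-MSC and 31917015 in STING-MSC joints. Counting noise was below the spread between joints for every member: it would give Mcl1 a coefficient of variation (CV) of 0.808%, where the mean CV within groups was 6.14%, and Bcl2a1d, the member with the fewest reads, 12.7% against 23.4%. MSC replicate 5 stood apart from the other libraries, with 296 genes listed at 0 where the others had 0 to 97, and no member was at 0 in it. Differences are given as log2 differences of (normalized count + 1) from limma over all 20 joints with their standard error (SE), and false discovery rates (FDR) cover all 14793 genes. For single members, 5 joints were set against 5 in a two-sided exact permutation test, which cannot give a p under 0.00794. The joints are separate mice. Markers of the labelled tissue were present: the 9 chondrocyte genes summed to 29491 to 693323 normalized counts over the joints, the 7 osteoblast genes to 83009 to 550176 and the 7 synovial fibroblast genes to 24209 to 476285, and each of these genes was above 0 in every joint. Markers of other tissue were present as well. The 8 skeletal muscle genes summed to 741140 to 3049422. The 6 measured keratinocyte genes summed to 19302 in TLR3-MSC replicate 4, 5147 in control replicate 1 and 97 to 1145 in the other joints.

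Mcl1 was by far the most abundant member. Per kilobase of exon, the median level over the 20 joints was 4090.2 normalized counts for Mcl1, and its lowest joint (3533) lay above the highest joint of the next member, Bcl2l1 (1392), whose median was 1053. The effectors followed with medians of 670.1 for Bak1 and 463 for Bax. Both were well above the BH3-only genes Bbc3 at 110.2 and Bcl2l11 at 100.5, while Bcl2 had 76.8, Bcl2a1d 69.2 and Pmaip1 57.0 per kilobase. Neighbours in this order overlapped in their ranges over the joints except at 2 steps, from Mcl1 to Bcl2l1 and from Bax to Bbc3, whose highest joint had 143 per kilobase against 382 in the lowest joint of Bax. These levels rest on the union of GENCODE exons, which is longer than the transcripts that are made where a gene has several ends.

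Mcl1 (chromosome 3, 95566099 to 95570488 in GRCm39 as deposited) was higher in every MSC joint than in any joint of the other groups. The normalized counts were 16584, 18119, 19638, 18671 and 16813 in the MSC joints, and 14264, 13462, 14294, 14475 and 12334 in the control joints. In the TLR3-MSC joints they were 13399, 14205, 13722, 14471 and 15678, and in the STING-MSC joints 13381, 13172, 14557, 12974 and 14029. The 5 MSC joints thus held ranks 1 to 5, and the other 15 joints lay between 12334 and 15678 with their groups intermingled. The order of the group means was MSC at 17965 ± 1280 (SD, n = 5), TLR3-MSC at 14295 ± 878 (SD, n = 5), control at 13766 ± 890.5 (SD, n = 5) and STING-MSC at 13623 ± 656 (SD, n = 5), and the last 3 did not differ beyond their spread.

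**Figure D1:**
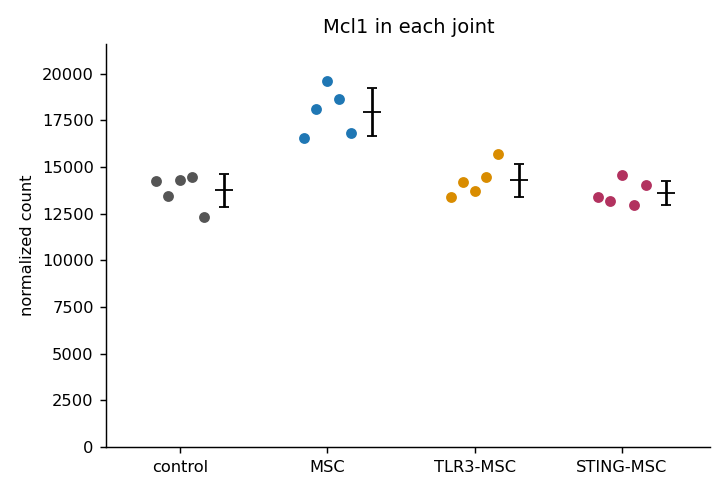
Normalized count of Mcl1 (y axis, from 0) in each of the 20 joints by group (x axis). Each point is a joint, and the bar beside each group gives the mean and SD of its 5 joints. The 5 MSC joints lie between 16584 and 19638, above all 15 other joints, which lie between 12334 and 15678.

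As a description with no test, the mean of Mcl1 in MSC joints was 30.5% above that in control joints (log2 difference 0.38, 95% interval 0.23 to 0.53). It was lower by -0.40 after STING-MSC than after MSC (95% interval -0.55 to -0.25) and by -0.33 after TLR3-MSC than after MSC (95% interval -0.48 to -0.18), on the log2 scale. These 3 differences share the same 5 MSC joints, so they are not separate pieces of evidence. Mcl1 was chosen with these joints. The intervals of these differences take no account of that choice and cannot serve as a test. The group pairs without the MSC joints were close: STING-MSC differed from control by -0.01 (95% interval -0.16 to 0.14) and from TLR3-MSC by -0.07 (95% interval -0.22 to 0.08). In the comparison that could be tested, TLR3-MSC against control, Mcl1 differed by 0.05 with an SE of 0.07 (exact permutation test, p = 0.397, and limma, FDR = 1.0), with a 95% interval of -0.10 to 0.21. Over all alternative settings, the log2 difference of Mcl1 between MSC and control stayed between 0.34 and 0.43, and that between STING-MSC and MSC between -0.43 and -0.36. These settings reuse the joints with which Mcl1 was chosen, so their constancy is no support for a difference.

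Groups that did not overlap, as those of Mcl1 in its 3 comparisons with MSC, were found for 1.11% of all genes between MSC and control, 1.05% between STING-MSC and MSC and 0.581% between TLR3-MSC and MSC. All MSC joints lay above all 15 others for 4 of 14793 genes, Mcl1 among them, and below all of them for 3. Mcl1 was chosen with the MSC joints, so its place among these 4 genes is no support for a difference. In the other comparisons the groups did not overlap for 0.825% of genes (TLR3-MSC against control), 2.17% (STING-MSC against control) and 1.35% (STING-MSC against TLR3-MSC), and for no member. Levels of 14 neutrophil markers moved in part with the groups: their summed normalized count was 456672 to 795208 in control joints, 634935 to 1074368 in MSC joints, 602915 to 919426 in TLR3-MSC joints and 634275 to 994191 in STING-MSC joints. Over the joints, r between Mcl1 and the list was 0.23 once group means were subtracted (rho = 0.29, adjusted permutation p = 0.592 and 0.447, and r = 0.10 without the 2 joints farthest from the median). The part of neutrophils in the Mcl1 values was not tested. In whole joints, fewer cells of a type and less RNA per cell cannot be told apart.

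Among the other survival genes, Bcl2 (chromosome 1, 106465908 to 106642005) had the narrowest spread in MSC joints. It had 756 ± 38.0 normalized counts (SD, n = 5) in MSC, 719 ± 72.4 in control, 662 ± 76.8 in TLR3-MSC and 710 ± 111 in STING-MSC joints (SD, n = 5 each). All groups overlapped. Between TLR3-MSC (562 to 740.004) and MSC (707 to 807) the log2 difference was -0.20 with an SE of 0.10 (exact permutation test, p = 0.0397, and limma, FDR = 0.978), and the exact p was at most 0.05 in no other of the 41 pairs of member and comparison tested.

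Bcl2l1 (chromosome 2, 152622588 to 152673649) varied more between joints than between groups. Its normalized counts were 5897, 4598, 4636, 4230.4 and 6183 in control joints and 5419, 3299, 6203, 5980.4 and 3417 in MSC joints. TLR3-MSC joints had 7149.7, 4367, 4346, 5538 and 4330.0, and STING-MSC joints had 5649, 4361, 5392, 5559 and 6434. MSC replicates 2 and 5 were the lowest joints of all and TLR3-MSC replicate 1 the highest, 2.17 times the lowest, and every group overlapped every other. In the 5 comparisons tested, the log2 difference lay between -0.11 and 0.11 with exact p between 0.468 and 1, and the 95% intervals reached from -0.50 to 0.50.

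Bcl2a1d (chromosome 9, 88605338 to 88613968) was low in every joint, at 35.6 to 91.8 normalized counts. The group means were 53.6 ± 14.0 in control, 68.8 ± 15.9 in MSC, 54.8 ± 9.32 in TLR3-MSC and 62.5 ± 17.2 in STING-MSC joints (SD, n = 5 each). Its log2 difference between MSC and control was 0.37 with an SE of 0.22 (exact permutation test, p = 0.159, and limma, FDR = 0.667), with 2 MSC joints above every control joint. Its copy Bcl2a1a, at 21.8 to 68.8 normalized counts, differed between these groups by 0.24 with an SE of 0.30.

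The effector genes had close group means. Bak1 (chromosome 17, 27238784 to 27247984) had group means from 1563 in TLR3-MSC to 1613 in control joints, and Bax (chromosome 7, 45111121 to 45116323) from 826 in STING-MSC to 904 in control joints. MSC replicate 5 was the lowest joint for both, at 1107 for Bak1 and 709 for Bax. For Bak1 the log2 differences tested lay between -0.07 and 0.04 (exact p between 0.468 and 0.937) and for Bax between -0.13 and 0.03 (exact p between 0.0635 and 0.833). The lowest p for Bax was between STING-MSC and control, where the means were 826 ± 55.6 and 904 ± 59.7 normalized counts (SD, n = 5 each) and the limma FDR was 0.633. The 95% intervals of all 10 tested differences of the effectors stayed between -0.35 and 0.27.

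Of the BH3-only genes, Pmaip1 (chromosome 18, 66591604 to 66598637), which encodes the MCL1-binding protein NOXA, had the largest log2 difference of the 41 tested, between STING-MSC and control joints. Its normalized counts were 159, 135, 158, 84.0 and 110 in control joints and 155, 100.2, 192, 187 and 102 in MSC joints. TLR3-MSC joints had 189.6, 142, 133, 194 and 167, and STING-MSC joints had 146, 157, 259.7, 127 and 254. STING-MSC replicates 3 and 5 stood well above every control joint, while the other 3 STING-MSC joints lay within the range of the control joints. The mean was 129 ± 32.4 in control and 189 ± 63.2 in STING-MSC joints (SD, n = 5 each), giving a log2 difference of 0.52 with an SE of 0.25 (exact permutation test, p = 0.127, and limma, FDR = 0.405). This was the only tested pair of member and comparison whose limma p before adjustment was at most 0.05, and leaving out any of 5 single joints (control replicates 2, 4 and 5, STING-MSC replicates 3 and 5) moved that p above 0.05, with log2 differences of 0.38 to 0.55. The neutrophil list had a mean score of 14.85 ± 0.27 in STING-MSC and 14.34 ± 0.32 in control joints on the log2 scale (SD, n = 5 each), and Pmaip1 followed this score within groups (r = 0.82, tested further on). The part of neutrophils in the Pmaip1 difference was not tested. Between TLR3-MSC and MSC, Pmaip1 differed by 0.20 with an SE of 0.25.

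Bcl2l11 (chromosome 2, 127967958 to 128004468), which encodes BIM, had 1131 ± 255 normalized counts in MSC, 1034 ± 97.8 in control, 959 ± 170 in TLR3-MSC and 1031 ± 141 in STING-MSC joints (SD, n = 5 each). Its log2 difference between TLR3-MSC and MSC was -0.23 with an SE of 0.15 (exact permutation test, p = 0.286, and limma, FDR = 0.978). Bbc3 (chromosome 7, 16042318 to 16052131), a p53 target that encodes PUMA, ranged from 431 to 686 normalized counts over the 20 joints. Its group means lay between 517 in control and 563 in STING-MSC joints, and the exact p of its 5 comparisons between 0.357 and 0.944.

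**Figure D2:**
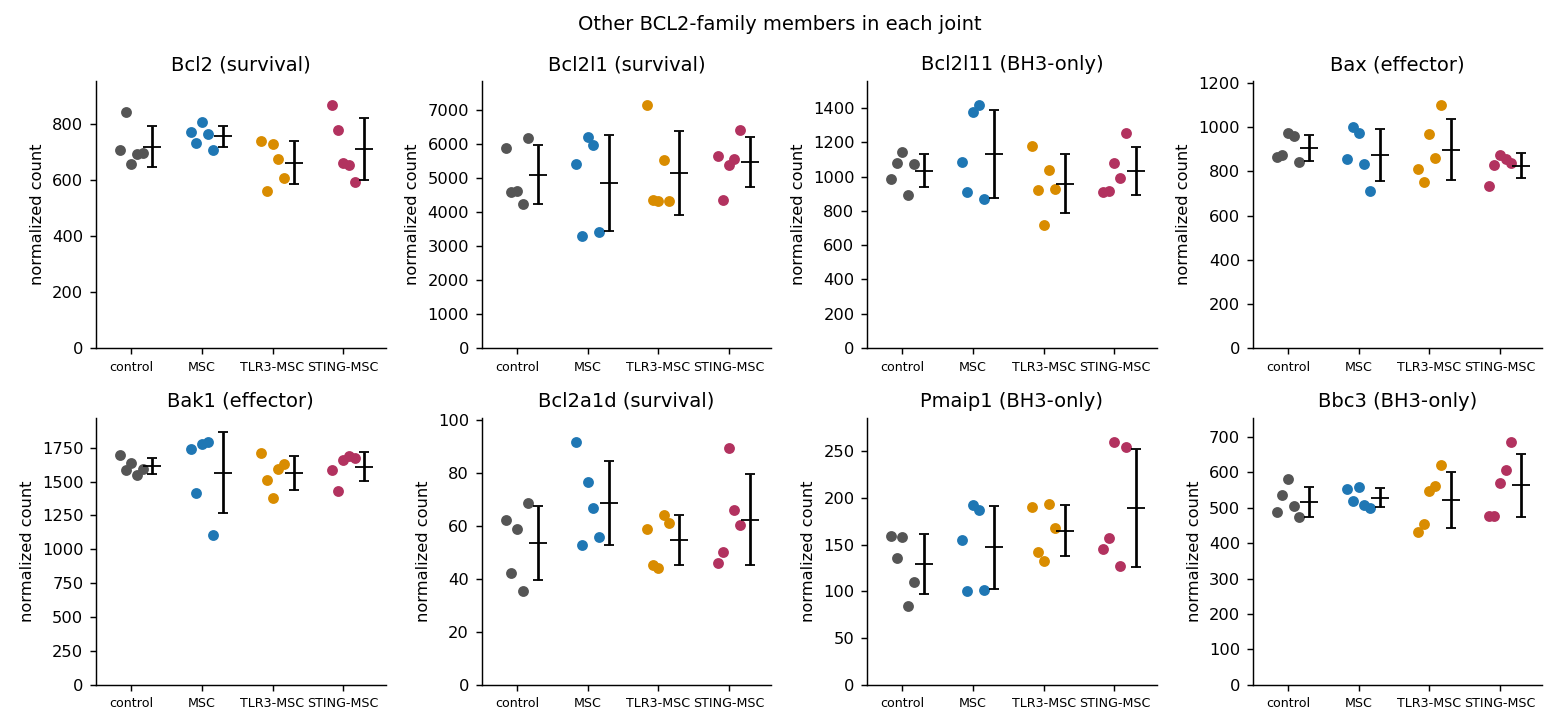
Normalized counts (y axes, from 0) of the 8 members other than Mcl1 in each joint by group (x axes), with the role of each gene in brackets. Points are joints and bars give the mean and SD of 5 joints. The groups of every gene overlap, and MSC replicates 2 and 5 form the low pair of MSC joints for Bcl2l1, Bcl2l11, Bak1, Bcl2a1d and Pmaip1.

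Counted over the 8 members other than Mcl1, none had an unadjusted limma p of at most 0.05 between MSC and control, where 8.55% of all genes did, and 1 (Pmaip1) between STING-MSC and control, where 12.2% of all genes did. None did between TLR3-MSC and control (3.58% of all genes), TLR3-MSC and MSC (3.88%) or STING-MSC and TLR3-MSC (2.57%). Between STING-MSC and MSC, the comparison that chose Mcl1, 4.94% of all genes did, and nothing is read from that share. None of the 8 passed an FDR of at most 0.05 in limma in the 5 comparisons tested. Of all genes, 0.00676% did so between MSC and control and 0% in each of the other comparisons. On the recovered reads, edgeR and DESeq2 also called none of the 8 at an FDR of at most 0.05 in the comparisons tested. Each put Pmaip1 alone at a p of at most 0.05 before adjustment, again between STING-MSC and control. Over all genes edgeR called 15 (0.101%) between MSC and control, 1 (0.00676%) between TLR3-MSC and MSC and 0 (0%) in the other 4 comparisons, while DESeq2 called 0.827% of 13055 genes between MSC and control, and of 14754 genes 85 (0.576%) between STING-MSC and control, 28 (0.19%) between STING-MSC and MSC, 7 (0.0474%) between TLR3-MSC and MSC, 3 (0.0203%) between TLR3-MSC and control and 2 (0.0136%) between STING-MSC and TLR3-MSC. The 6 members other than Mcl1, Bcl2a1d and Pmaip1 had log2 differences between -0.23 and 0.11 in the 30 comparisons tested, with 95% intervals from -0.54 for Bcl2l11 to 0.50 for Bcl2l1. The intervals of Bax and Bak1 were narrower, as given above.

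**Figure D3:**
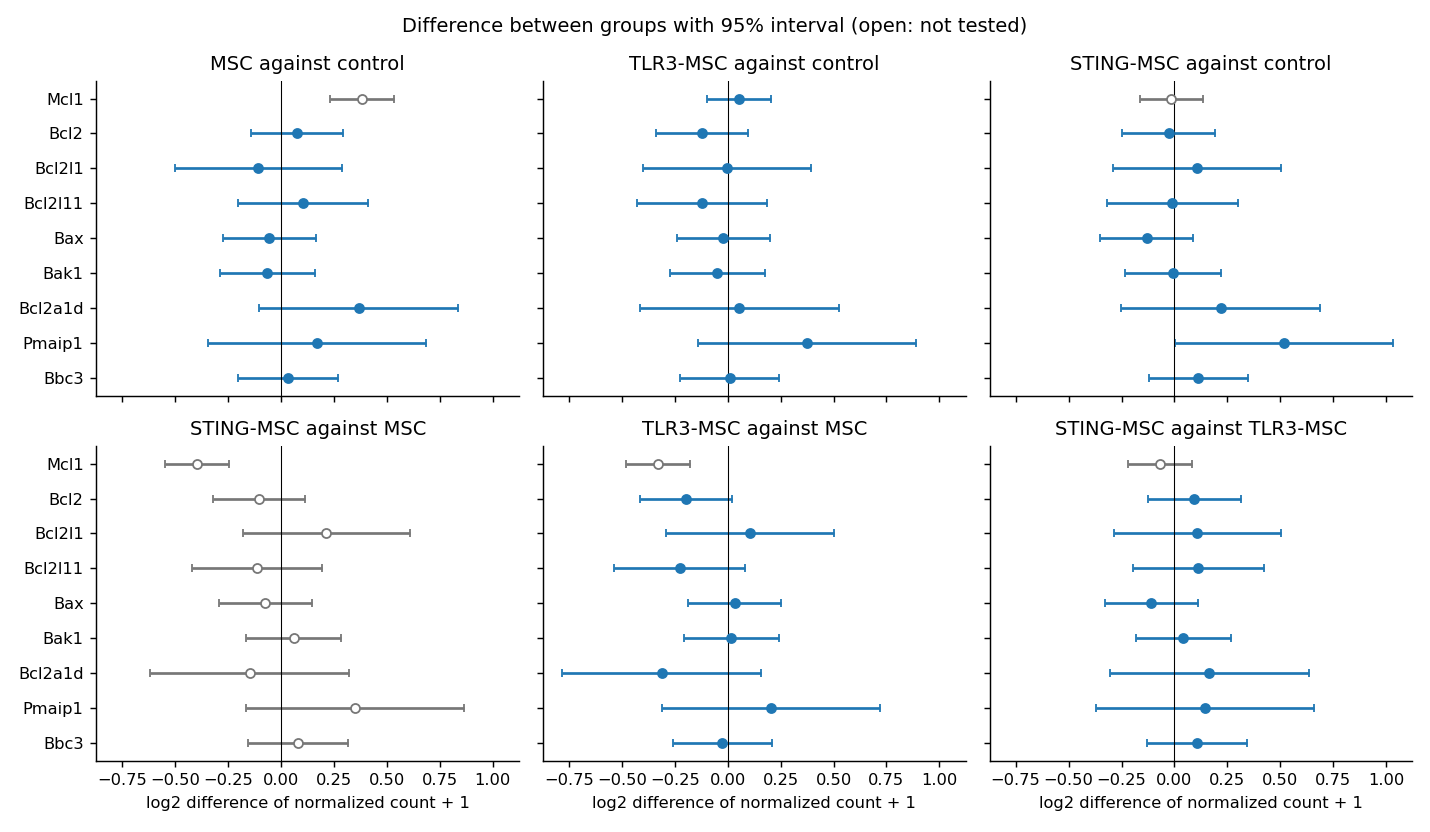
Log2 difference of (normalized count + 1) from limma (x axes) for each of the 9 members (y axes) in the 6 comparisons, with 95% intervals. Filled points were tested, open points were not because Mcl1 was chosen on the comparison or the joints. The intervals of open points take no account of that choice. Mcl1 lies away from 0 in the 3 comparisons with MSC joints, and of the filled points only that of Pmaip1 between STING-MSC and control (0.52) has an interval that leaves out 0.

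A ratio of 2 members within a joint does not depend on the size factor. The log2 ratio of Bcl2 to Bax was -0.33 ± 0.20 in control, -0.20 ± 0.17 in MSC, -0.43 ± 0.26 in TLR3-MSC and -0.23 ± 0.31 in STING-MSC joints (SD, n = 5 each). That of Bcl2l1 to Bax was highest in STING-MSC joints at 2.72 ± 0.23 and between 2.43 and 2.50 in the other groups. The ratio of Mcl1 to Bax was 3.93 ± 0.07 in control, 4.37 ± 0.16 in MSC, 4.00 ± 0.18 in TLR3-MSC and 4.04 ± 0.10 in STING-MSC joints (SD, n = 5 each). The MSC mean was the highest, but the lowest MSC joint, at 4.17, lay below the highest TLR3-MSC joint at 4.24 and the highest STING-MSC joint at 4.19. The ratio of Mcl1 to Pmaip1, the transcripts of a survival protein and its binding partner, was 6.97 ± 0.41 in MSC, 6.76 ± 0.39 in control, 6.44 ± 0.25 in TLR3-MSC and 6.23 ± 0.41 in STING-MSC joints (SD, n = 5 each). The 12 ratio tests gave exact p between 0.127 and 0.952, and none below 0.694 after Benjamini-Hochberg adjustment over the 12.

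Around the family, 6 lists of apoptosis and stress genes held 91 genes, 87 of them measured. With a limma p of at most 0.05 before adjustment, 3 were higher and 1 lower between MSC and control (4.60% of the 87), 3 and 3 between TLR3-MSC and control (6.90%), and 3 and 7 between STING-MSC and control (11.5%). Between TLR3-MSC and MSC 2 were higher and 2 lower (4.60%), and between STING-MSC and TLR3-MSC 0 and 2 (2.30%). These shares stand beside the 8.55%, 3.58%, 12.2%, 3.88% and 2.57% of all genes given above. None of the 87 passed an FDR of at most 0.05 in any of these comparisons. The genes named from these lists were picked by a limma p of at most 0.05 before adjustment in the comparison given. Their exact p comes from the same joints and is not a separate test.

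Among 12 genes of MCL1 turnover, Usp9x, whose product removes ubiquitin from MCL1, was the most regular. It had 3998 to 5175 normalized counts in TLR3-MSC joints and 2957 to 3725 in MSC joints, which did not overlap (log2 difference 0.33, SE 0.10, exact permutation test, p = 0.00794, limma FDR = 0.978). Its difference was 0.27 with an SE of 0.10 between TLR3-MSC and control and 0.23 with an SE of 0.10 between STING-MSC and control. Huwe1, which encodes a ubiquitin ligase of MCL1, was higher by 0.17 with an SE of 0.08 in TLR3-MSC than in MSC joints (exact permutation test, p = 0.0397, limma FDR = 0.978). All 12 genes of this list had a log2 difference below 0 between MSC and control. Their median was -0.09 beside -0.04 over all genes, and none had an unadjusted p of at most 0.05 there. A count by sign depends on the scaling: with quantile normalization the median over all genes was 0.006. The share of all genes below 0 is not given here, so nothing is read from this count. The 8 skeletal muscle markers summed to a median of 1213938 normalized counts in MSC joints (741140 to 2360698) and 1742053 in control joints (1413479 to 2056861). The part of these markers in the differences of the turnover genes was not tested. Between STING-MSC and MSC the list had a median of 0.14 beside 0.02 over all genes, as a description, with values of 0.29 for Usp9x and 0.16 for Gsk3a, a kinase that marks MCL1 for degradation.

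Of 13 measured other BCL2-family genes, Bok, an effector relative, was lower by -0.85 (SE 0.38) and Bcl2l13, a mitochondrial family member, higher by 0.21 (SE 0.09) in STING-MSC than in control joints, with FDR of 0.387 and 0.388. Of 20 apoptosome, caspase and IAP genes, Xiap, which encodes a caspase inhibitor, differed from control by 0.15 (SE 0.07) after TLR3-MSC and by 0.18 (SE 0.07) after STING-MSC, and Birc3, another IAP gene, by 0.27 (SE 0.11) after MSC. Between STING-MSC and control the caspase and IAP list had a median of 0.06 beside 0.01 over all genes.

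Among 22 p53 and stress genes, Cdkn1a, a p53 target that stops the cell cycle, had its lowest group mean in STING-MSC joints, at 778 to 1178 normalized counts. This range overlapped that of MSC joints (994 to 3701), given as a description. The log2 difference of Cdkn1a in STING-MSC from TLR3-MSC joints (1246 to 3599) was -0.82 (SE 0.36, exact permutation test, p = 0.00794, limma FDR = 0.890). From control joints (1121 to 3537) it was -0.96 (SE 0.36, exact permutation test, p = 0.0159, limma FDR = 0.354). Plk2 differed from control by -0.77 (SE 0.24) after STING-MSC and by -0.59 (SE 0.24) after MSC, and Foxo1, a transcription factor that drives Bcl2l11, was lower by -0.52 (SE 0.22) in STING-MSC than in TLR3-MSC joints. The 7 synovial fibroblast markers summed to 35503 to 92254 normalized counts in STING-MSC joints. The sums did not overlap with those of control joints (102668 to 476285) and TLR3-MSC joints (93911 to 411405), which were higher. In MSC joints they were 24209 to 447347, with a median of 81841 beside 84640 in STING-MSC joints. By the mean log2 level of these genes the groups did overlap. STING-MSC replicate 4, at 12.68, lay above control replicate 5 and TLR3-MSC replicate 1, each at 12.63. The part of these markers in the values of Cdkn1a, Plk2, Foxo1 and Bok was not tested. Of 11 death receptor genes, Fas was higher by 0.37 (SE 0.14) after MSC than in control joints, Cflar, which encodes the caspase-8 inhibitor c-FLIP, by 0.24 (SE 0.10) after TLR3-MSC, and Tnfsf10 (TRAIL) differed by -0.40 (SE 0.16) after TLR3-MSC.

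The 9 immediate-early genes, which switch on within minutes of a stimulus or of handling, had a median of -0.60 between STING-MSC and control, -0.31 between TLR3-MSC and control and -0.003 between MSC and control, beside 0.01, -0.01 and -0.04 over all genes. It was -0.37 between TLR3-MSC and MSC and, as a description, -0.70 between STING-MSC and MSC, beside 0.03 and 0.02 over all genes. Fos had 237 to 539 normalized counts in STING-MSC and 665 to 1512 in control joints (log2 difference -1.54, SE 0.38, exact permutation test, p = 0.00794, limma FDR = 0.274), and Egr1 604 to 1614 against 2082 to 5559 (-1.65, SE 0.38, exact permutation test, p = 0.00794, limma FDR = 0.256). By their summed count, the synovial fibroblast markers given above were lower in the same STING-MSC joints than in control joints. The part of these markers in the values of Fos and Egr1 was not tested. Atf3 was higher by 0.81 (SE 0.32) in MSC than in control joints. Mcl1, itself a gene that responds early to growth factors and cytokines, had a correlation with the score of this list of r = 0.50 over 20 joints after group means were subtracted (Spearman rho = 0.47), with adjusted permutation p of 0.155 for r and 0.159 for rho.

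The 5 genes whose log2 values were most like those of Mcl1 over the 20 joints were Fosl2 (r = 0.90), Plaur (0.87), Slc38a2 (0.87), Jmjd6 (0.85) and Csrnp1 (0.85). After group means were subtracted, r was 0.87 for Fosl2, 0.62 for Plaur, 0.60 for Slc38a2, 0.66 for Jmjd6 and 0.67 for Csrnp1. Fosl2, which encodes an AP-1 subunit, had 5515 ± 1446 normalized counts in MSC, 3587 ± 1005 in control, 3881 ± 531 in TLR3-MSC and 3121 ± 376 in STING-MSC joints (SD, n = 5 each). Plaur, the urokinase receptor gene, had 3247 ± 663 in MSC and 2098 ± 221 in control joints (SD, n = 5 each). The genes share libraries and size factors with Mcl1 and were taken as the closest of all other genes, so these values are a description. Within groups the other members were less close to Mcl1, from r = -0.25 for Bcl2 to 0.57 for Bax.

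The members also differed in how they followed the cell types of the joint, from 1 joint to the next. Scores of marker lists, each the mean log2 level of its genes, were set beside the members over the 20 joints after group means were subtracted, and of 45 relations with 5 lists 11 had an adjusted permutation p of at most 0.05 for Pearson's r. Pmaip1 followed the neutrophil list (r = 0.82, rho = 0.78, adjusted permutation p = 0.00698 and 0.00765, and r = 0.79 without the 2 joints farthest from the median) and the B lineage list (r = 0.80, rho = 0.83, adjusted permutation p = 0.0072 and 0.00765, and r = 0.79 without the 2 farthest joints). Bak1 followed the neutrophil list as well (r = 0.75, rho = 0.80, adjusted permutation p = 0.00698 and 0.00765, and r = 0.78 without the 2 farthest joints). So did Bcl2l1 (r = 0.77, rho = 0.72, adjusted permutation p = 0.0121 and 0.0318, and r = 0.73 without the 2 farthest joints) and Bcl2l11 (r = 0.68, rho = 0.65, adjusted permutation p = 0.0248 and 0.0374, and r = 0.73 without the 2 farthest joints).

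Bcl2a1d, a gene known from neutrophils and lymphocytes, followed the B lineage list (r = 0.67, rho = 0.66, adjusted permutation p = 0.0248 and 0.0338, and r = 0.58 without the 2 farthest joints), and so did Bcl2l11 (r = 0.67, rho = 0.65, adjusted permutation p = 0.0121 and 0.0318, and r = 0.62 without them) and Bcl2l1 (r = 0.61, rho = 0.62, adjusted permutation p = 0.0248 and 0.0338, and r = 0.60 without them). Between Bcl2a1d and the neutrophil list r was 0.65 and rho 0.59 (adjusted permutation p = 0.0372 and 0.0595, and r = 0.62 without the 2 farthest joints). Negative relations past the threshold for r were those of Bak1 with the skeletal muscle list (r = -0.64, rho = -0.63, adjusted permutation p = 0.0387 and 0.0595, and r = -0.60 without the 2 farthest joints) and of Bcl2l1 with the immediate-early list (r = -0.66, rho = -0.64, adjusted permutation p = 0.0448 and 0.0509, and r = -0.49 without them). Mcl1, Bcl2, Bax and Bbc3 had no relation past the threshold with any of the 5 lists. Relations with the macrophage and monocyte list, none of them past the threshold, depended on how the score was made: with the median of its genes in place of the mean, r moved from 0.21 to 0.82 for Bcl2l1, from 0.29 to 0.79 for Bak1, from -0.04 to 0.68 for Bcl2l11 and from 0.14 to 0.58 for Pmaip1, over 20 joints and with no test of the second score.

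Bcl2l1 tracked the erythroid list more closely than any member tracked any other list. This list (Hbb-bs, Hba-a1, Alas2, Slc4a1, Epor and Klf1, all measured) was added after the spread of Bcl2l1 had been seen, so its relations are a description with no test. With group means subtracted, r was 0.97 and rho 0.97 over 20 joints, and r was 0.96 without MSC replicate 5 and TLR3-MSC replicate 1, the 2 joints farthest from the median. The summed erythroid level was lowest in MSC replicates 5 and 2 (864339 and 942713 normalized counts), the same joints in which Bcl2l1 was lowest, and the group ranges overlapped, at 1099262 to 1860078 in control, 864339 to 1718042 in MSC, 1003812 to 1708237 in TLR3-MSC and 1186056 to 1809731 in STING-MSC joints. The same description gave r = 0.77 for Bcl2l11, 0.75 for Bak1, 0.61 for Bcl2a1d, 0.60 for Pmaip1, 0.20 for Bcl2, 0.01 for Bbc3, -0.07 for Mcl1 and -0.11 for Bax. Within the MSC group, replicates 2 and 5 had the lowest scores of the neutrophil, B lineage and erythroid lists alike. Relations of a member with these lists are therefore not separate pieces of evidence. The part of these cell types in the values of the members was not tested.

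**Figure D4:**
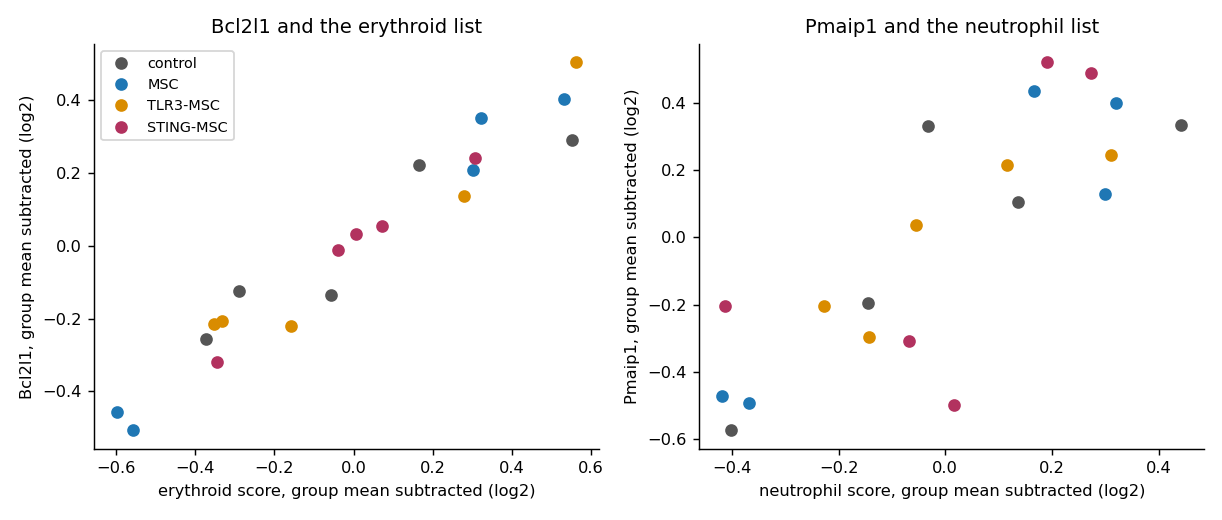
Left, Bcl2l1 (y axis, log2 with its group mean subtracted) against the erythroid score (x axis, mean log2 level of 6 genes with the group mean subtracted), and right, Pmaip1 against the neutrophil score of 14 genes on the same scales. Each point is 1 of 20 joints, coloured by group. The left points lie close to a line (r = 0.97), with MSC replicates 2 and 5 at the lower end, and the right points spread more widely (r = 0.82).

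**Figure D5:**
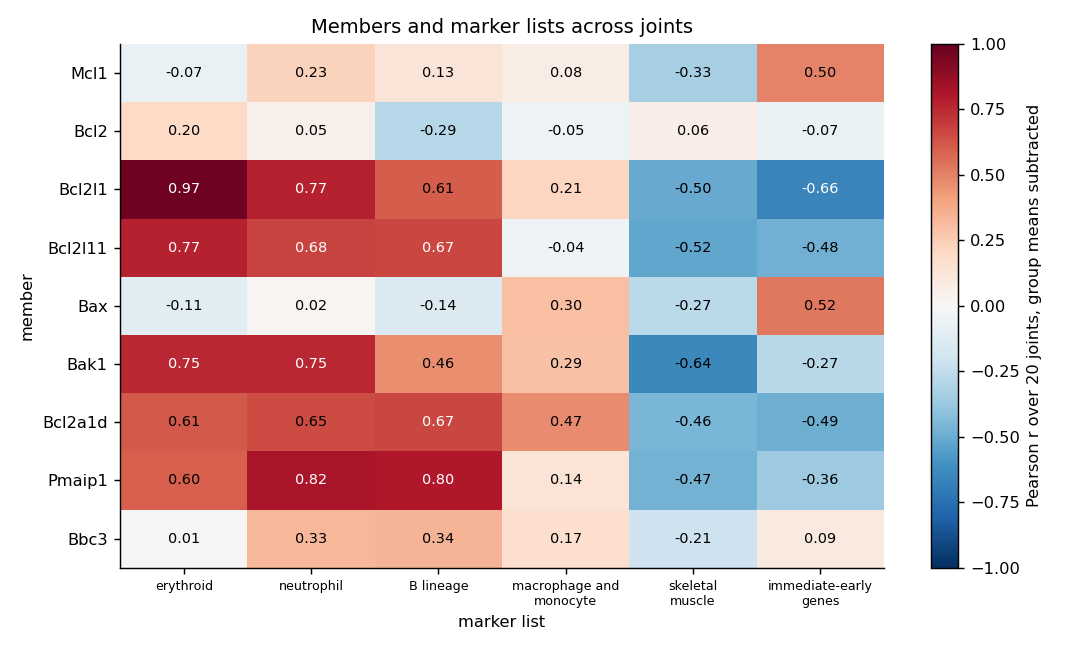
Pearson r (colour and printed value) between each member (y axis) and the score of each marker list (x axis) over 20 joints after group means were subtracted. Bcl2l1, Bcl2l11, Bak1, Bcl2a1d and Pmaip1 have r of 0.46 to 0.97 with the erythroid, neutrophil and B lineage lists, while Mcl1, Bcl2, Bax and Bbc3 lie between -0.29 and 0.34 with these lists.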

How the data were processed

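Messenger RNA was enriched with oligo(dT) beads from whole mouse knee joints and sequenced as pairs of 150 bases. The authors filtered the reads, aligned them to GRCm39 with STAR (version 2.7.3a), counted them per gene with HTSeq on an Ensembl annotation and named DESeq2. The deposited values are a normalized signal: counts divided by a median-ratio size factor per library. A filter on low counts and the use of strand are not given in the sources used here. Whole reads were recovered for 99.8% to 99.9% of the values of each joint (within 0.1 read).

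Groups came from the treatment labels. Differences were fitted with limma (version 3.58.1, R 4.3.3, trend option) on log2(normalized count + 1) over all 20 joints and 4 groups without a block, in place of a count test because the values are normalized. The minimum mean of 5 removed 0 genes. FDR is by the Benjamini-Hochberg method. Exact tests ran over the 252 ways to divide 10 joints. Correlations used 100000 permutations within groups, two-sided. edgeR (version 4.0.16) and DESeq2 (version 1.42.0) ran on the recovered reads. Also tried were pseudocounts of 0.5 and 5, no minimum mean or one of 20, a fit of the 2 groups alone, quantile normalization, a replicate block, and leaving out each joint. The fits were tested on simulated data.

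One gene of the erythroid list is not reported here and was left out of its score. The members, the lists and the tests were chosen with earlier results of these data known. All members were named, with up to 4 genes per pathway list and comparison (unadjusted p of at most 0.05, smallest first) and the 5 genes most correlated with Mcl1. Gene positions are as deposited, where ends lie 1 base past or differ from GENCODE vM39, which gave exon lengths and Bcl2a1 transcripts. Intervals and counting noise cover these joints and their reads only.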

Additional observations from a re-analysis of the deposited data

Results flagged for a closer look

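Each member in each group of 5 joints was checked for a joint far from the others with Dixon's test (critical value 0.71), 36 groups in all, of which chance flags about 1 in 20. One was found: Bcl2 had 844 normalized counts in control replicate 2, above the other 4 control joints, which lay between 657 and 707.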

How the results depend on the processing

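The 6 counts of members with an unadjusted p of at most 0.05 include Mcl1 (9 members). Of 114 alternative values, 104 stayed within 1.5 times the main count. In the comparisons with MSC joints the member counted in the main setting is Mcl1, which was chosen with these joints. Those counts are a description, and their constancy is no support for a difference of Mcl1. The count between STING-MSC and control, 1 (Pmaip1), became 0 when only the 2 groups compared were fitted and 0 with the replicate number as a block, and lay between 0 and 1 with each joint left out in turn (0 without control replicate 2, 4 or 5 or STING-MSC replicate 3 or 5). The count between TLR3-MSC and MSC, 1 (Mcl1), lay between 1 and 2 with each joint left out, where Bcl2 (without TLR3-MSC replicate 1 or 3) or Bcl2l11 (without MSC replicate 5) was added. The other 4 counts kept their value within 1.5 times, also with each joint left out. The log2 ratio of Bcl2 to Bax between TLR3-MSC and MSC, -0.23, lay between -0.31 and -0.13 with each joint left out, and its exact p was 0.0476 without TLR3-MSC replicate 1. Of the single members, 1016 of 1026 alternative values kept their side of the threshold, and none that had passed changed direction. The 1026 values cover 54 differences, of which 41 were tested. The others, of Mcl1 outside TLR3-MSC against control and of all members between STING-MSC and MSC, are a description. Their constancy is no support for a difference. The only tested difference that had passed in the main setting was that of Pmaip1 between STING-MSC and control. Its limma p rose above 0.05 in 7 alternative settings. The sign changed in 55 of the 1026, all of 17 differences of at most 0.11 in size on the log2 scale, such as that of Bcl2l1 between MSC and control without MSC replicate 2 or 5. Of the alternative correlations 14 moved by more than 1 standard error (of Fisher's z) and 94 did not, with 5 of the 14 being relations with the macrophage and monocyte list scored by its median. Same-numbered joints are different mice, and the mean correlation of their deviations lay between -0.14 and 0.11 over the 6 comparisons, so the block shares only a number. The members of lowest level, Bcl2a1d and Pmaip1, are limited most by depth. The alternative with DESeq2 or edgeR changed none of these counts by over 1.5 times.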
